A study of Mus musculus with 4 samples.

Results

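The CEBP (CCAAT/enhancer binding protein) factors are transcription factors with a basic leucine zipper, here Cebpa, Cebpb, Cebpd, Cebpe and Cebpg. They were taken as the gene rows with these names, 5 of 32272, and as the open chromatin peaks within 50 kb of each gene, 95 of 174339. Their counts were summed per class of nuclei and per library, over barcodes with 200 or more genes and between 1000 and 50000 counts in peaks. Levels are given in CPM, counts per 1000000 UMIs or ATAC counts of the same class and library.

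Lineage-negative, cKit-positive hematopoietic stem and progenitor cells (HSPCs) of adult male C57BL/6 wild type mice were profiled by single-nucleus multiome sequencing, an assay that counts RNA molecules (UMIs) and, from each nucleus, transposase cuts in accessible DNA (ATAC). By the labels there were an unligated control (Ctrl) group and a ligated (Lig) group, a model of periodontitis sampled at day 14, each with 1 RNA and 1 ATAC sample from marrow pooled over several mice. The deposited matrix held both, told apart by a barcode suffix, 1 or 2, whose group the labels do not state, so they are called library 1 and library 2 and no difference between them was read as an effect of ligation. With 1 sample per group there was no test, and all intervals are 95% intervals of counting error alone.

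After filtering, library 1 held 5905 nuclei with 10294527 UMIs and 118239764 ATAC counts, and library 2 held 7714 nuclei with 12537328 UMIs and 128699726 ATAC counts. The same barcode sequence occurred in both libraries for 72 kept barcodes. Nuclei were clustered without the CEBP genes and without peaks within 100 kb of them. Clusters were named from marker genes into 13 classes, with 6 clusters left unnamed, of 2111, 1960, 977, 858, 644 and 119 nuclei. Orders of classes below, such as highest or most open, are among the 13 named classes alone. The classes the results turn on were HSC-like (stem cell, 719 nuclei), GMP-like (granulocyte-monocyte progenitor, 1096), NeuP-like (neutrophil progenitor, 482), cMoP-like (monocyte progenitor, 149), EryP-like (erythroid progenitor, 639) and pro-B-like (1564). The others were MPP4-like, dendritic (cDCP-like, pDCP-like), basophil (BaP-like), megakaryocyte (MkP-like), pro-NK/T-like and B-like. Kit, the receptor used for the sort, was at 354 and 172 CPM in HSC-like nuclei of library 1 and library 2, 38.2 and 31.9 in NeuP-like, 27.4 and 8.94 in cMoP-like and 38.8 and 24.9 in B-like nuclei. Pairs of values below are given in the order library 1, library 2.

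CEBP proteins bind DNA as dimers that form through their leucine zippers. In blood formation, Cebpa is needed for the step to granulocyte-monocyte progenitors, Cebpe for late granulocyte maturation, and Cebpb for granulocyte output under infection or cytokine stress. Cebpd is an acute-phase member, and Cebpg, which lacks an activation domain, acts mainly as a dimer partner. An enhancer downstream of Cebpa is known to be active in myeloid progenitors.

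Cebpa, ENSMUSG00000034957, lies at chr7:35119293-35121928 on the plus strand of GRCm38 and has 1 exon, with 23 peaks in its window. Cebpg, ENSMUSG00000056216, lies upstream of it on the minus strand at chr7:35046422-35056573, with 3 exons and 16 peaks. These windows shared 7 peaks, so their sums are not independent. Cebpb, ENSMUSG00000056501, lies at chr2:167688915-167690418, plus strand, with 1 exon and 27 peaks, several of them inside Tmem189. Cebpd, ENSMUSG00000071637, lies at chr16:15887286-15891031, plus strand, with 1 exon and 13 peaks. Cebpe, ENSMUSG00000052435, lies at chr14:54710360-54712174, minus strand, with 2 exons and 23 peaks. Peak positions are the distance from the gene's start site to the peak's centre, in the direction of transcription.

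The sequences behind the clearest differences between classes are printed from the GRCm38 reference of RefSeq, in lower case, with motif matches in capitals. The motifs searched, on both strands, were TTGCNNAA (CEBP), TTGCATCA (CEBP with an ATF partner), and GAGGAAGT (PU.1). RUNX was searched as TGTGGTT, and EBF by its palindrome. The letters for GATA factors, which lead erythroid, megakaryocyte and basophil development, were AGATAAG. A match is a description of letters and not a bound site. The 250 bases before the Cebpa start site, chr7:35119043-35119292, plus strand, are shown because the start peak there was open in all 13 classes, and they held none of these motifs.
Cebpa upstream: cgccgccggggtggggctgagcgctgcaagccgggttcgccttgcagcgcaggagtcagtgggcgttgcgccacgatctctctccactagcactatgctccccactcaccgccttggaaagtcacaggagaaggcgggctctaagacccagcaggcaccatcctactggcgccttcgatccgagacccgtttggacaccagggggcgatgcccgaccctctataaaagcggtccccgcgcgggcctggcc
The central 300 bases of the intergenic peak 37363 bp downstream of Cebpa, chr7:35156506-35156805, plus strand, are shown because this peak was open in stem-like and myeloid classes and nearly closed in pro-B-like nuclei, and the capitals mark a RUNX match.
Cebpa downstream 37363: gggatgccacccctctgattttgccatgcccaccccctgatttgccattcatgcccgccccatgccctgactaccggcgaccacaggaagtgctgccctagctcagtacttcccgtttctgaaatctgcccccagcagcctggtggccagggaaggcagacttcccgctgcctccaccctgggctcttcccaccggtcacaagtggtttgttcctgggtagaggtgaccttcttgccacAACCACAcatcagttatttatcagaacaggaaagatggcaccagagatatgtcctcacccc
The peak 39446 bp upstream of Cebpb lies in an intron of Tmem189 and of Gm20431 and had the widest range over classes of the Cebpb peaks. Its central 300 bases, chr2:167649320-167649619, plus strand, held no match.
Cebpb upstream 39446: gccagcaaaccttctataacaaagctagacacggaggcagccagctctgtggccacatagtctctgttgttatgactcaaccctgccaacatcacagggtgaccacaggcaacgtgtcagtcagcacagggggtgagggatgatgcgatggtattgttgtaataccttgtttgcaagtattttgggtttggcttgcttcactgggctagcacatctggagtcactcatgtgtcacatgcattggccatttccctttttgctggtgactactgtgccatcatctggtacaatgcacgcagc
Neighbouring intergenic peaks downstream of Cebpe are shown by their central 300 bases because their class orders differed. The first, at 5220 bp, was chosen after its values were seen and held no match. The bases shown are chr14:54706804-54707103, plus strand.
Cebpe downstream 5220: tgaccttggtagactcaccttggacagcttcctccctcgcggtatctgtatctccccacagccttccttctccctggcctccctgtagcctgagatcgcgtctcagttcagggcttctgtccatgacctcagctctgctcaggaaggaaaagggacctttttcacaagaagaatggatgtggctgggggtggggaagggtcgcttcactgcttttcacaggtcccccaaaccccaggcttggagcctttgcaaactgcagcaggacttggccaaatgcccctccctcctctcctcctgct
The second, at 6159 bp, held 3 CEBP matches and 1 GATA match, and the bases shown are chr14:54705865-54706164, plus strand.
Cebpe downstream 6159: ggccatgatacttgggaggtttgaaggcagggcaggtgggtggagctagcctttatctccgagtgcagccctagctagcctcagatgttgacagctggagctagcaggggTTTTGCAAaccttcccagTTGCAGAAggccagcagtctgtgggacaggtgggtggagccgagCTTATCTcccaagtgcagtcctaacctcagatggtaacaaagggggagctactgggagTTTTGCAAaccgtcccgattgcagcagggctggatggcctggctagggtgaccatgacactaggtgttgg
The peak 42562 bp upstream of Cebpe lies in an intron of Slc7a8 and held 1 CEBP match. Its central 300 bases are chr14:54754587-54754886, plus strand.
Cebpe upstream 42562: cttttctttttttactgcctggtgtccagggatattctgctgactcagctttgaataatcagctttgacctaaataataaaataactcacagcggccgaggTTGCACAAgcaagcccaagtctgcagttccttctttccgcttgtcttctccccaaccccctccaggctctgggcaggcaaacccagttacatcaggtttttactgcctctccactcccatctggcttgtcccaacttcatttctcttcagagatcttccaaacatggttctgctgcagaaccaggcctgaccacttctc

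Among the 13 named classes the Cebpa locus was most open in GMP-like nuclei, not separated from cMoP-like nuclei in library 2, and least open in the lymphoid classes. Summed over its 23 peaks it held 209 and 199.8 ATAC CPM in GMP-like nuclei, 170.1 and 195 in cMoP-like and 163 and 154 in HSC-like nuclei. The pro-B-like class held 65.98 and 77.8 and the B-like class 59.5 and 44.9. The GMP-like over pro-B-like ratio was 3.17 (2.86 to 3.51) in library 1 and 2.57 (2.27 to 2.93) in library 2, and with a 100 kb window it was 2.06 and 1.96. The cMoP-like over GMP-like ratio was 0.814 (0.659 to 0.997) and 0.977 (0.796 to 1.18). The step from HSC-like to GMP-like nuclei was smaller, at 1.28 (1.14 to 1.44) and 1.30 (1.17 to 1.45). NeuP-like nuclei, which carry later granule genes, were below GMP-like nuclei, at 161 and 145 and with ratios of 0.771 (0.652 to 0.903) and 0.726 (0.635 to 0.827). EryP-like nuclei were below HSC-like nuclei, with ratios of 0.684 (0.590 to 0.791) and 0.804 (0.687 to 0.941). The order of the 13 classes was similar in both libraries, with a Spearman correlation of 0.901 over classes that share a library and its depth. The same correlation of locus sums was 0.940 for Cebpb, 0.863 for Cebpd, 0.681 for Cebpe and 0.681 for Cebpg. For start peaks it was 0.835 for Cebpa, 0.830 for Cebpb, 0.643 for Cebpd, 0.747 for Cebpe and 0.440 for Cebpg. For the other peaks of a window it ran from 0.390 at Cebpd to 0.901 at Cebpb and 0.940 at Cebpg. The class orders of Cebpd, Cebpe and Cebpg were thus less alike between libraries in several of these regions.

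The Cebpa start peak varied about as much as the locus sum, with BaP-like and GMP-like nuclei at the top, BaP-like first in library 2 and GMP-like first in library 1. It held 47.9 and 60.9 CPM in BaP-like, 52.3 and 52.3 in GMP-like, 45.2 and 43.1 in NeuP-like, 39.1 and 36.8 in HSC-like, 11.8 and 15.6 in pro-NK/T-like and 25.1 and 25.96 in pro-B-like nuclei. NeuP-like and HSC-like nuclei were not separated there, with ratios of 1.16 (0.809 to 1.62) and 1.17 (0.869 to 1.59).

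**Figure D1:**
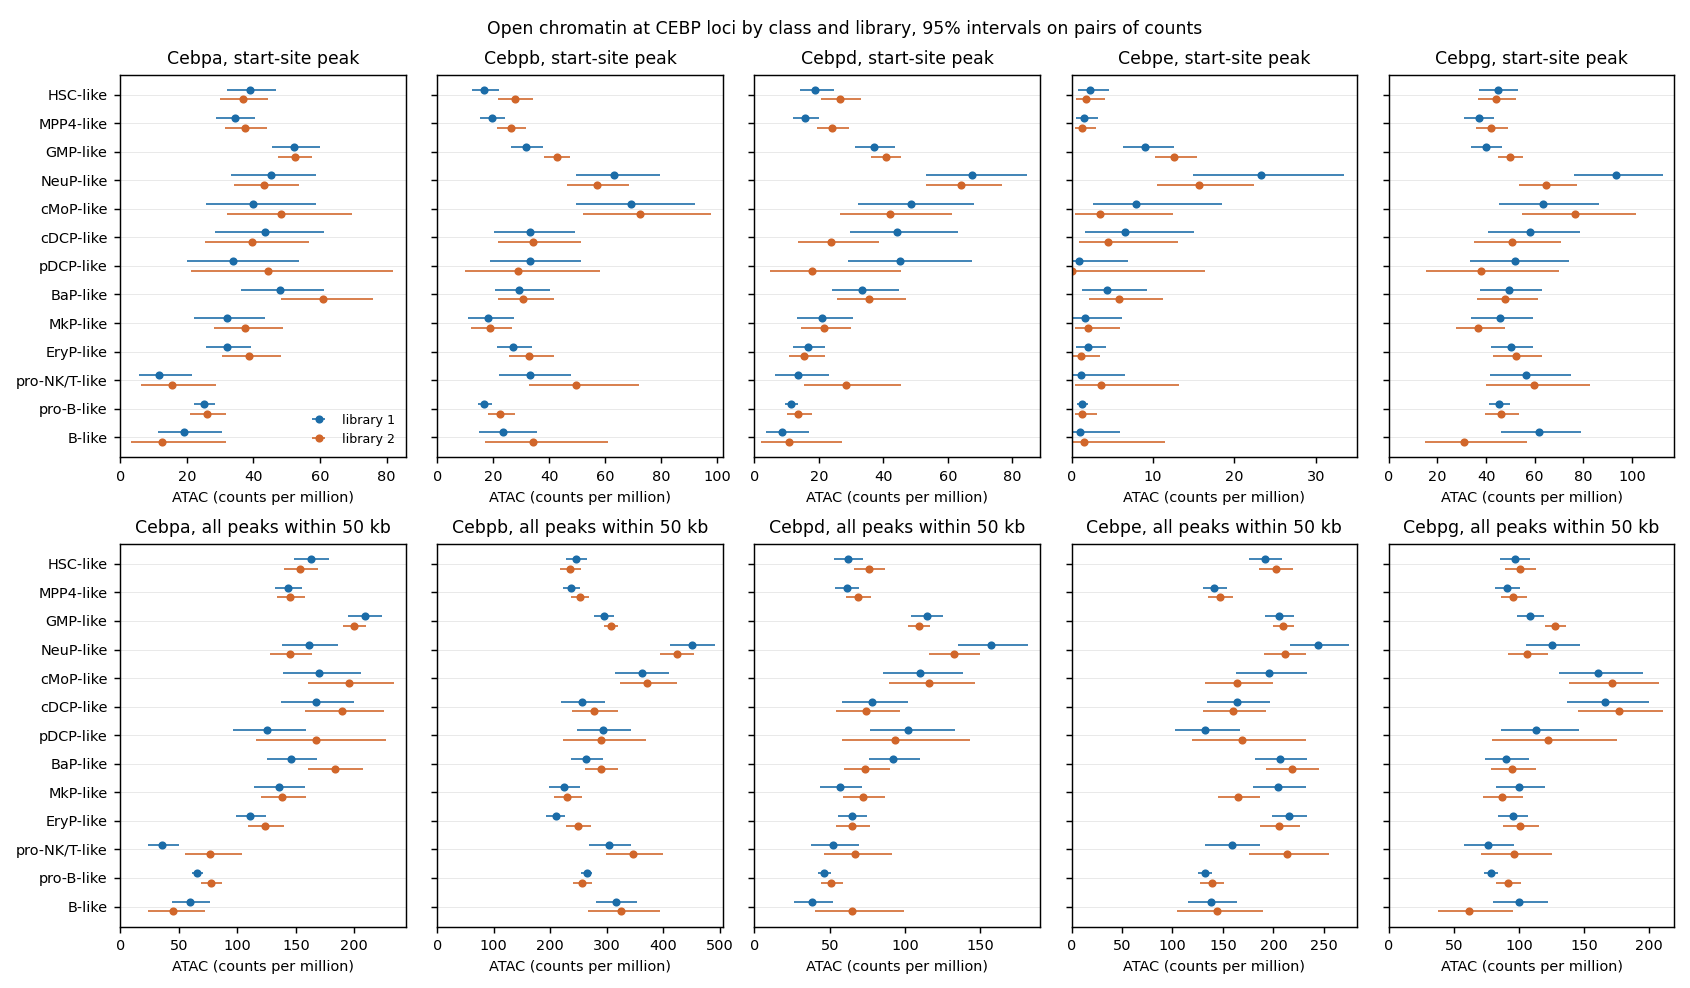
ATAC CPM at the start-site peak and over all peaks within 50 kb of each CEBP gene, by class of nuclei in library 1 and library 2, with bars for 95% intervals of counting error. The Cebpd and Cebpe start peaks are highest in NeuP-like nuclei, at 67.6 and 64.1 and at 23.3 and 15.6, while the Cebpa locus is highest in GMP-like nuclei at 209 and 199.8.

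The peak 37363 bp downstream of Cebpa, printed above, separated pro-B-like nuclei from the myeloid classes more than the start peak did. It held 35.7 and 29.6 CPM in GMP-like, 31.5 and 26.04 in HSC-like, 25.7 and 31.6 in BaP-like and 2.60 and 3.97 in pro-B-like nuclei. The GMP-like over pro-B-like ratio was 13.7 (9.17 to 22.2) in library 1 and 7.46 (4.42 to 13.5) in library 2, against 2.08 (1.73 to 2.51) and 2.02 (1.61 to 2.54) at the start peak. NeuP-like nuclei held 26.8 and 15.4, and the NeuP-like over GMP-like ratio was 0.750 (0.480 to 1.10) and 0.519 (0.332 to 0.758), so the interval excluded 1 in library 2 alone.

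Other Cebpa peaks had other orders. The peak 31805 bp downstream, with 1 CEBP and 1 PU.1 match, was highest on average in pDCP-like and cMoP-like nuclei, at 24.6 and 13.8 in cMoP-like and 18.9 and 20.03 in pDCP-like nuclei, against 8.14 and 4.40 in HSC-like and 1.13 and 1.72 in pro-B-like nuclei. The peak 38562 bp downstream held 11.7 and 8.85 in GMP-like and 2.30 and 2.82 in HSC-like nuclei. Upstream, the peak at 20367 bp was highest in cDCP-like nuclei, at 22.8 and 31.3, and held 9.55 and 8.01 in GMP-like and 2.63 and 1.62 in NeuP-like nuclei. It also lies in the Cebpg window.

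Summed over its window, the Cebpb locus was highest in NeuP-like nuclei and was not low in lymphoid classes, unlike its start peak in pro-B-like nuclei. Over its 27 peaks it held 450.4 and 424 CPM in NeuP-like, 362 and 372 in cMoP-like, 316 and 325 in B-like, 295 and 308 in GMP-like, 246 and 235 in HSC-like and 265 and 257 in pro-B-like nuclei. The NeuP-like over HSC-like ratio was 1.83 (1.63 to 2.06) and 1.80 (1.62 to 2.001), and the GMP-like over pro-B-like ratio only 1.11 (1.04 to 1.19) and 1.20 (1.11 to 1.29). In library 1 the interval of the latter held 1 under 3 of 10 alternatives, as with clusters from RNA alone, at 1.04 (0.979 to 1.10). The start peak was highest in cMoP-like nuclei at 69.1 and 72.2 and NeuP-like nuclei at 63.2 and 56.9, against 16.6 and 27.6 in HSC-like and 17.9 and 18.7 in MkP-like nuclei. At this peak the NeuP-like over HSC-like ratio was 3.80 (2.60 to 5.61) in library 1 and 2.06 (1.52 to 2.80) in library 2. Pro-B-like nuclei were second lowest of the named classes there, averaging 19.7 CPM over the libraries. The GMP-like over pro-B-like ratio at the start peak was 1.89 (1.49 to 2.39) and 1.89 (1.49 to 2.43).

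The intronic peak 39446 bp upstream of Cebpb, printed above, ranged from 46.1 and 33.96 CPM in NeuP-like to 0.427 and 1.02 in MkP-like nuclei. GMP-like nuclei held 27.3 and 25.1 and HSC-like nuclei 1.24 and 3.17. The NeuP-like over HSC-like ratio was 37.2 (13.9 to 215) in library 1, where HSC-like nuclei gave 7 counts, and 10.7 (5.30 to 24.5) in library 2. The peak was also open in lymphoid classes, at 20.4 and 34.1 in B-like and 22.99 and 25.7 in pro-NK/T-like nuclei.

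A peak 16406 bp upstream of Cebpb, in an intron of Tmem189 and chosen after its values were seen, was highest in the B lineage. It held 33.2 and 27.9 CPM in B-like, 31.5 and 22.3 in pro-B-like, 8.61 and 9.67 in EryP-like, 2.12 and 2.82 in HSC-like and 0.439 and 1.35 in NeuP-like nuclei. The pro-B-like over HSC-like ratio was 14.9 (6.74 to 40.7) and 7.90 (3.83 to 18.9). Both peaks lie inside another gene, and position alone ties neither to Cebpb.

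**Figure D2:**
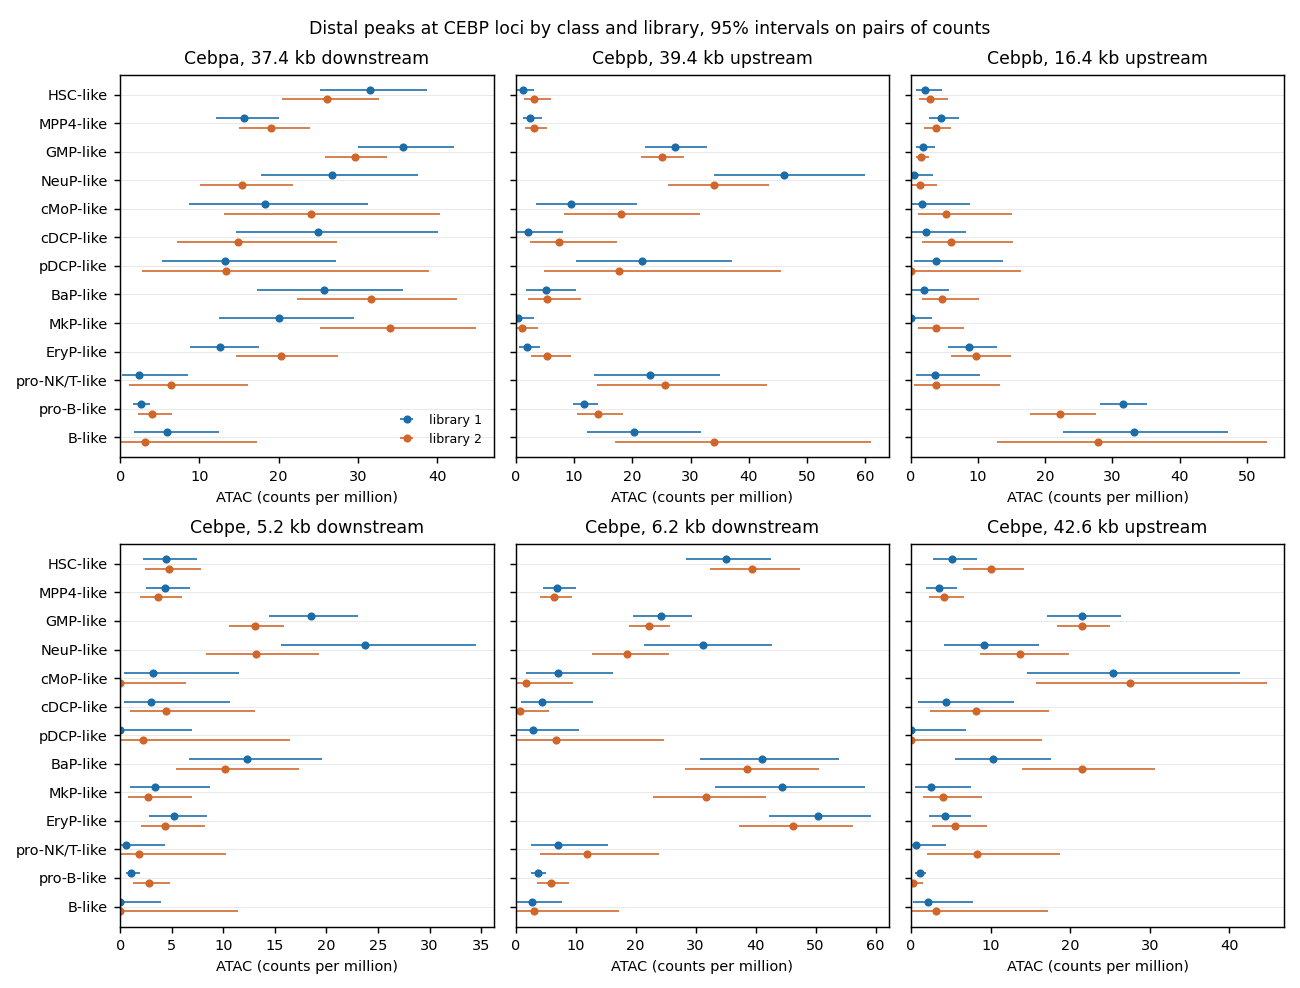
ATAC CPM at distal peaks of the CEBP loci by class of nuclei in library 1 and library 2, with bars for 95% intervals of counting error. The Cebpb peaks 39446 bp and 16406 bp upstream have opposite orders in NeuP-like and pro-B-like nuclei, and the Cebpe peak 6159 bp downstream is highest in EryP-like nuclei at 50.4 and 46.2.

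Cebpd was most open in NeuP-like nuclei. The start peak held 67.6 and 64.1 CPM in NeuP-like, 48.5 and 42.1 in cMoP-like, 37.1 and 40.7 in GMP-like, 18.7 and 26.6 in HSC-like and 11.4 and 13.5 in pro-B-like nuclei. NeuP-like nuclei stood above HSC-like nuclei with ratios of 3.61 (2.51 to 5.22) and 2.41 (1.81 to 3.29) and above pro-B-like nuclei with ratios of 5.94 (4.39 to 7.99) and 4.75 (3.39 to 6.73). The peak 2882 bp downstream, over an exon annotated to Cebpd and Spidr, held 27.2 and 17.8 in NeuP-like and 2.40 and 2.25 in pro-B-like nuclei, a ratio of 11.3 (6.57 to 20.6) and 7.90 (3.80 to 21.03). The peak 23976 bp downstream, in an intron of Spidr, held 10.97 and 2.96 in NeuP-like, 2.39 and 3.13 in GMP-like and 0.638 and 0.530 in pro-B-like nuclei. Of all counts in the Cebpd window, 37.7% lay in the start peak. Another 32.6% lay in the peak 23968 bp upstream, at the start of Mzt2, which was highest in cMoP-like nuclei.

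Cebpe had the widest range at its start peak of the 5 genes, and a locus sum that did not show it. The start peak held 23.3 and 15.6 CPM in NeuP-like, 9.05 and 12.6 in GMP-like, 2.30 and 1.76 in HSC-like and 1.23 and 1.32 in pro-B-like nuclei. NeuP-like nuclei stood above HSC-like nuclei with ratios of 10.1 (4.33 to 31.95) and 8.88 (3.40 to 29.4). They stood above GMP-like nuclei with a ratio of 2.57 (1.46 to 4.29) in library 1 and were not separated from them in library 2, at 1.24 (0.788 to 1.89). Over all 23 peaks the NeuP-like over HSC-like ratio was 1.27 (1.10 to 1.47) and 1.04 (0.914 to 1.19). Of all counts in the Cebpe window, 44.2% lay in the peak at the start of the neighbouring gene Acin1, which held 93.9 and 89.7 in NeuP-like and 67.4 and 62.3 in GMP-like nuclei.

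The distal Cebpe peaks differed in their class order. The peak 5220 bp downstream was like the start peak, at 23.7 and 13.2 CPM in NeuP-like, 18.5 and 13.1 in GMP-like and 4.42 and 4.75 in HSC-like nuclei, and NeuP-like nuclei stood above HSC-like nuclei with ratios of 5.36 (2.74 to 12.1) and 2.78 (1.38 to 6.05). The next peak, at 6159 bp, was highest in EryP-like nuclei at 50.4 and 46.2, with BaP-like nuclei at 41.1 and 38.6, MkP-like at 44.4 and 31.7, HSC-like at 35.02 and 39.4, NeuP-like at 31.2 and 18.6 and pro-B-like at 3.73 and 5.96. EryP-like and HSC-like nuclei, the highest and a lower class in this order, had ratios of 1.44 (1.10 to 1.87) and 1.17 (0.877 to 1.55), beyond counting error in library 1 alone. EryP-like nuclei stood above pro-B-like nuclei with ratios of 13.5 (9.36 to 19.8) and 7.75 (4.92 to 13.2). The peak 42562 bp upstream was highest in cMoP-like nuclei at 25.4 and 27.5 and GMP-like nuclei at 21.5 and 21.5, against 9.22 and 13.7 in NeuP-like, 5.13 and 10.03 in HSC-like and 1.08 and 0.265 in pro-B-like nuclei.

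Cebpg had the narrowest range at its start peak. It held 93.5 and 64.7 CPM in NeuP-like, 63.6 and 76.5 in cMoP-like, 39.9 and 50.003 in GMP-like, 44.7 and 44.2 in HSC-like and 45.4 and 46.1 in pro-B-like nuclei. The GMP-like over pro-B-like ratio was 0.877 (0.725 to 1.05) and 1.08 (0.905 to 1.31), and both intervals held 1. The NeuP-like over HSC-like ratio was 2.09 (1.60 to 2.73) and 1.46 (1.13 to 1.90), and both intervals excluded 1. Start-peak ratios, here and at the other loci, were not set beside those of all gene starts. Whether the rises in NeuP-like nuclei were particular to CEBP genes was thus not tested. On average the peaks at the starts of Acin1 and of Gm14320 and Gm20431 also held more in NeuP-like than in GMP-like nuclei. The locus sum was highest in cDCP-like nuclei, at 166 and 177, and cMoP-like nuclei, at 161 and 171. The peak 9646 bp upstream, over an exon of Gm45096, held 12.5 and 14.2 in cDCP-like and 9.54 and 11.2 in cMoP-like nuclei against 0.354 and 0.352 in HSC-like nuclei, the last from 2 counts in each library. The peak 8388 bp upstream held 24.6 and 11.2 in cMoP-like, 12.8 and 11.98 in GMP-like and 1.08 and 1.72 in pro-B-like nuclei.

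Peaks were counted as different where they were at least 2-fold apart from HSC-like nuclei in the same direction in both libraries. With a minimum of 20 counts over both classes, many peaks pass only through the class where they are high, so these counts are a description and nothing is read from them. In GMP-like nuclei 16 of 75 CEBP peaks were higher, against 14% of all 114210 such peaks, and 1 was lower, against 6.49%. In NeuP-like nuclei 9 of 54 were higher, against 9.86%, and 5 were lower, against 26.9%. In pro-B-like nuclei 5 of 62 were higher, against 10.9%, and 21 were lower, against 16.4%. In EryP-like nuclei 1 of 56 was higher, against 5.94%, and 5 were lower, against 11%.

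The counts were repeated with the minimum of 20 set on the class that a call would put lower, in each library, a choice made after the data were seen. Of the 16 peaks higher in GMP-like nuclei 13 were under this minimum in HSC-like nuclei, and of the 21 lower in pro-B-like nuclei 15 were under it in pro-B-like nuclei. In GMP-like nuclei 3 of 40 CEBP peaks were then higher (7.50%, against 1.99% of all 54890 such peaks), the Cebpe peaks 5220 bp downstream and 42562 bp upstream and the Cebpg peak 8388 bp upstream. In NeuP-like nuclei 4 of 40 were higher (10%, against 3.36%), the start peaks of Cebpb and Cebpd, the Cebpb peak 24430 bp downstream and the Cebpe peak 5220 bp downstream. In pro-B-like nuclei 6 of 40 were lower (15%, against 5.28%). Those were 3 at Cebpa, the peak 37363 bp downstream among them, 2 at Cebpb and the Cebpe peak 6159 bp downstream. Higher in pro-B-like nuclei was 1 of 40 (2.50%, against 2.83%), the Cebpb peak 24430 bp downstream. Lower in GMP-like nuclei was 1 of 66 (1.52%, against 2.83%), lower in NeuP-like nuclei 0 of 29 (against 1.34%), lower in EryP-like nuclei 1 of 30 (3.33%, against 2.55%) and higher in EryP-like nuclei 0 of 40 (against 1.19%).

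**Figure D3:**
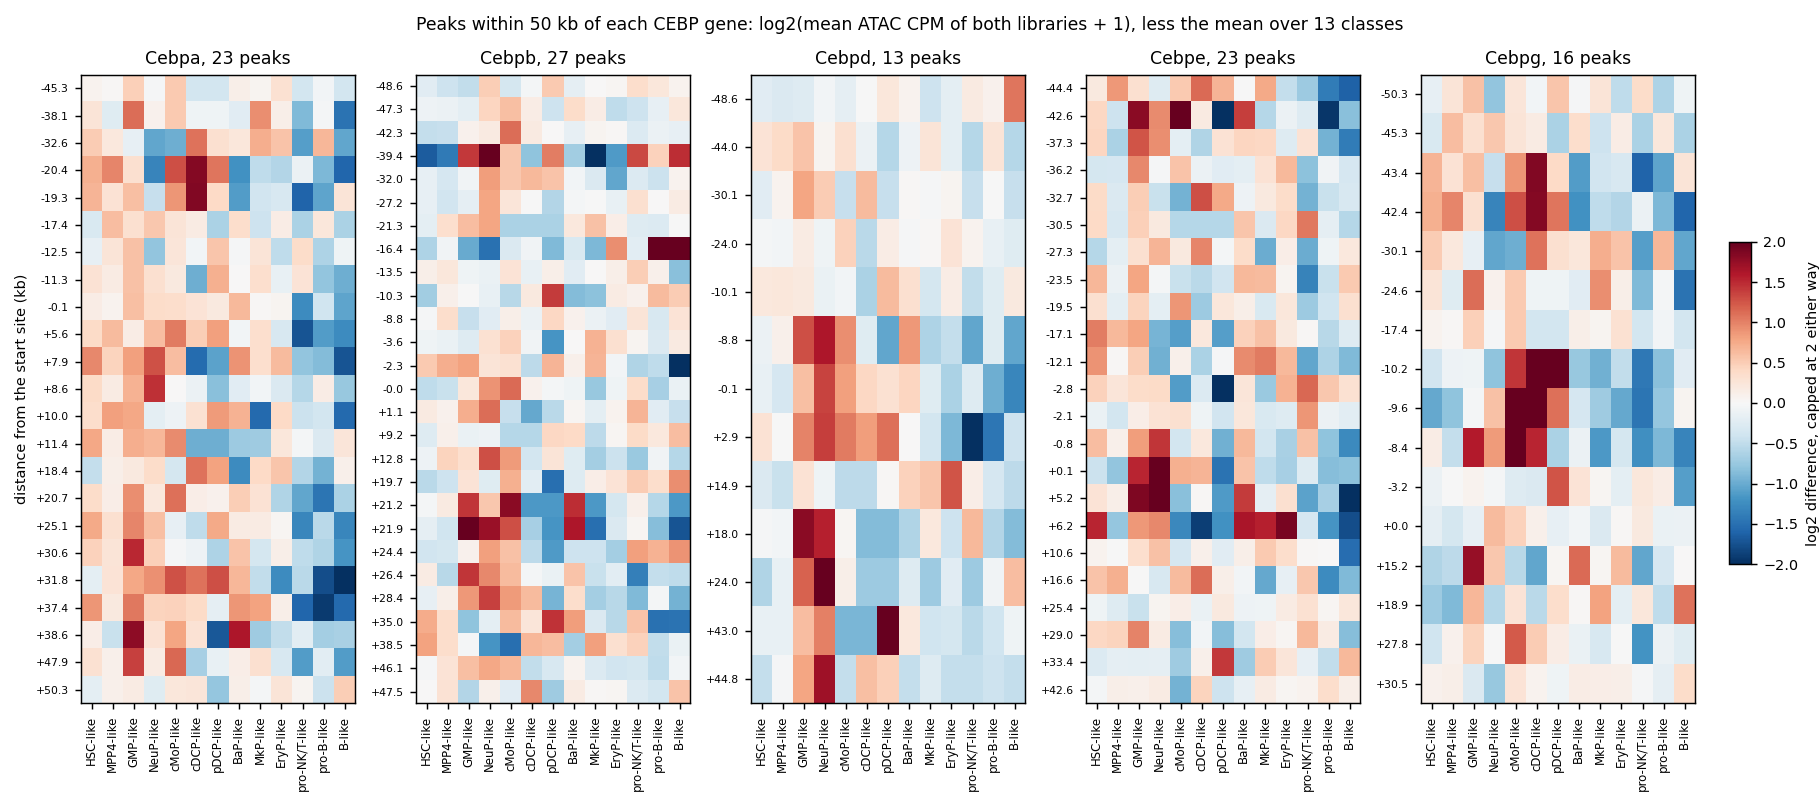
Each row is a peak within 50 kb of a CEBP gene, by its distance from the start site, and each column a class of nuclei, with colour for the log2 ATAC level relative to the mean over classes. At Cebpa most rows are low in pro-B-like and B-like nuclei, and the Cebpe start peak and the peak 5220 bp downstream are high in NeuP-like and GMP-like nuclei.

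Windows of the same reach around 18281 protein-coding genes, many of them overlapping, gave a frame for the ratios of locus sums. These sums include peaks at the starts of other genes. For GMP-like over pro-B-like nuclei the median window had a ratio of 0.988, and Cebpa lay at percentile 98.0, Cebpd at 96.7, Cebpe at 89.8, Cebpg at 86.1 and Cebpb at 72.7. For NeuP-like over HSC-like nuclei the median was 1.04, and Cebpd lay at percentile 98.1, Cebpb at 96.5, Cebpg at 64.1, Cebpe at 62.2 and Cebpa at 43.5. The order of the loci depended on the window. With 10 kb the GMP-like over pro-B-like ratio was 3.94 and 3.48 at Cebpd, 3.56 and 2.87 at Cebpe and 2.24 and 2.27 at Cebpa. With 100 kb it was 2.64 and 2.31 at Cebpd, 2.23 and 2.07 at Cebpg and 2.06 and 1.96 at Cebpa. Of the 3 windows Cebpa was first in 1, that of 50 kb. At 100 kb the Cebpa and Cebpg windows each held the start peak of the other gene, so their sums are not of separate loci.

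RNA of the CEBP genes was sparse. Over all kept nuclei there were 57 and 59 UMIs of Cebpa, 159 and 245 of Cebpb, 85 and 119 of Cebpd, 35 and 60 of Cebpe, and 135 and 107 of Cebpg. These are counts per gene and not per length, so levels were compared between classes and not between genes. In such sums, fewer expressing nuclei and less RNA per nucleus cannot be told apart.

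Cebpb RNA was highest in cMoP-like nuclei, at 109.8 (56.7 to 192) and 89.4 (42.9 to 164) CPM from 12 and 10 UMIs. NeuP-like nuclei followed at 47.7 (22.9 to 87.7) and 50.1 (31.4 to 75.8), from 10 and 22 UMIs. HSC-like nuclei held 21.6 and 24.6, GMP-like 8.54 and 15.3 and pro-B-like 6.85 and 14.998. The NeuP-like over GMP-like ratio was 5.58 (1.74 to 20.8) and 3.27 (1.70 to 6.32) and the cMoP-like over GMP-like ratio 12.8 (4.21 to 46.6) and 5.84 (2.44 to 13.1). The same 2 classes led at the Cebpb start peak, but GMP-like and HSC-like nuclei did not keep 1 order in RNA and peak. The GMP-like over HSC-like ratio was 1.91 (1.35 to 2.72) and 1.54 (1.21 to 2.01) at that peak. In RNA it was 0.395 (0.108 to 1.23) and 0.622 (0.299 to 1.33), and both RNA intervals held 1. MkP-like nuclei held 0 UMIs in library 1, with an interval that reached 15.5 CPM, and 10 UMIs in library 2.

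Cebpe RNA was at 33.4 (13.4 to 68.8) and 18.2 (7.86 to 35.9) CPM in NeuP-like nuclei, from 7 and 8 UMIs, and at 8.54 (2.77 to 19.9) and 14.5 (8.75 to 22.7) in GMP-like nuclei, from 5 and 19 UMIs. HSC-like nuclei held 1 and 2 UMIs and pro-B-like nuclei 8 and 3. The NeuP-like over pro-B-like ratio was 7.32 (2.26 to 23.1) and 4.45 (1.07 to 26.05), and the GMP-like over pro-B-like ratio 1.87 (0.482 to 6.49) and 3.55 (1.05 to 18.8). With at least 500 genes per nucleus the last was 7.02 (0.694 to 346) in library 1. Its interval in library 2 held 1 under 5 of 7 alternatives, as at a clustering resolution of 0.4, 2.51 (0.748 to 13.1). No Cebpe UMI was found in cMoP-like, cDCP-like, pDCP-like or MkP-like nuclei. In cMoP-like nuclei the interval of a count of 0 reached 33.7 and 32.99 CPM, which is no lower than the GMP-like level.

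Cebpa RNA did not separate the named classes at this depth. GMP-like nuclei held 5.13 and 7.65 CPM from 3 and 10 UMIs, HSC-like nuclei 3.93 and 1.76 from 2 and 1, and pro-B-like nuclei 1.14 and 5.45 from 2 and 4. The GMP-like over pro-B-like ratio in library 2 was 1.40 (0.405 to 6.13). The largest unnamed cluster, 2111 nuclei led by Tnf and Nrg1, held 21 and 11 Cebpa UMIs, 15.6 (9.68 to 23.9) and 4.70 (2.34 to 8.40) CPM.

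Cebpd RNA was at 14.3 (2.95 to 41.8) and 27.3 (14.1 to 47.7) CPM in NeuP-like nuclei, from 3 and 12 UMIs, at 10.3 and 11.5 in GMP-like and at 5.13 and 6.82 in pro-B-like nuclei. The NeuP-like over pro-B-like ratio was 2.79 (0.485 to 11.2) and 4.01 (1.31 to 14.5). Cebpg RNA was at 22.8 (16.3 to 31.1) and 9.54 (3.84 to 19.7) in pro-B-like nuclei, from 40 and 7 UMIs, and at 8.54 and 6.89 in the GMP-like class. Its GMP-like over pro-B-like ratio was 0.374 (0.115 to 0.949) and 0.721 (0.239 to 2.28), and the interval excluded 1 in library 1 alone. There it held 1 under 3 of 7 alternatives, at 0.626 (0.177 to 1.84) with at least 500 genes per nucleus, 0.566 (0.298 to 1.03) with clusters from RNA alone and 0.418 (0.128 to 1.08) without the top 8% of doublet scores.

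**Figure D4:**
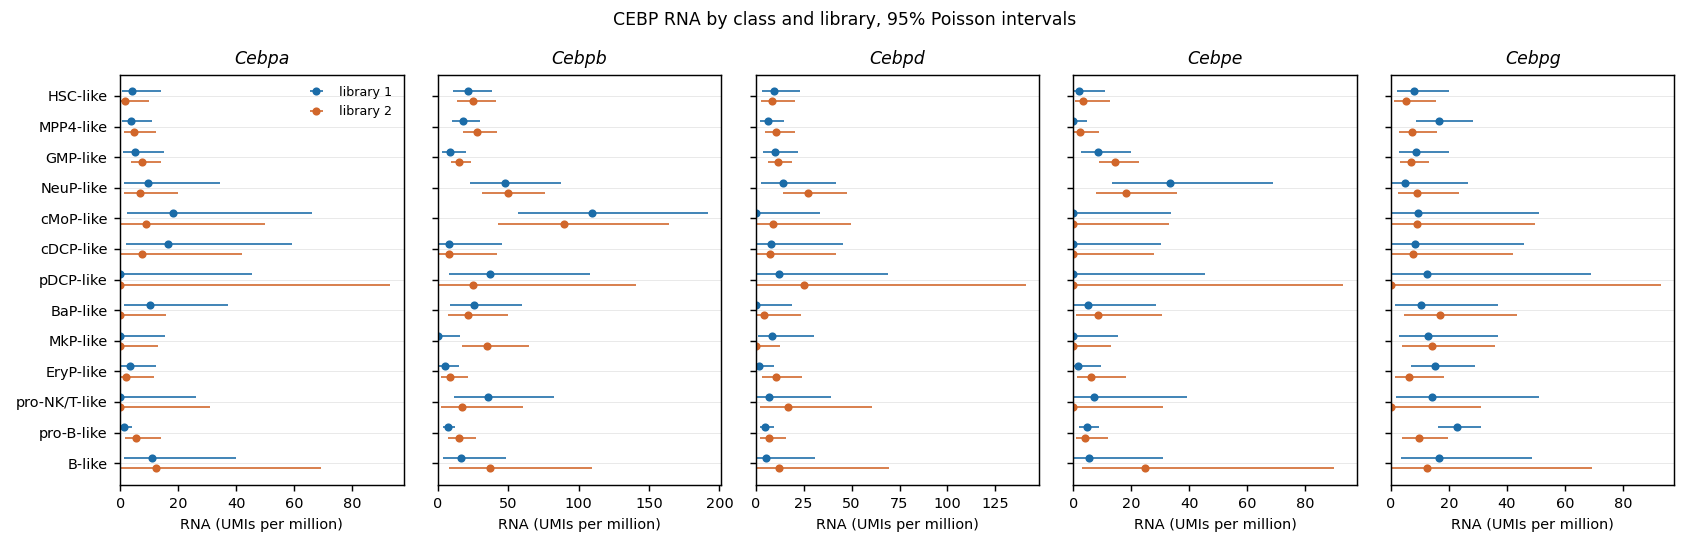
RNA of each CEBP gene in CPM by class of nuclei in library 1 and library 2, with bars for 95% Poisson intervals. Cebpb is highest in cMoP-like nuclei at 109.8 and 89.4, and the Cebpe value of NeuP-like nuclei is 33.4 and 18.2.

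Genes that CEBP factors are known to regulate or work with were described as lists, by the same 2-fold rule on RNA with 20 or more UMIs in each library of the class that a call would put lower. The 5 primary granule genes (Mpo, Elane, Prtn3, Ctsg and Ms4a3) were markers that named GMP-like nuclei, and the 6 later granule genes (Ltf, Camp, Ngp, Lcn2, Mmp8 and Cd177) named NeuP-like nuclei, so their levels there are a description and nothing is read from their counts. Elane, neutrophil elastase, was at 692 and 988 CPM in GMP-like, 109.7 and 179.8 in NeuP-like and 92.4 and 116 in HSC-like nuclei. Ltf, lactoferrin, was at 1278 and 794 in NeuP-like, 3.42 and 13.8 in GMP-like and 11.8 and 35.1 in HSC-like nuclei. Of the primary granule genes, Prtn3, Elane and Mpo had enough UMIs in HSC-like nuclei, and 0 of 3 were higher in NeuP-like nuclei, where 0.707% of 2262 genes were.

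Of the cytokine receptors only Csf3r, the G-CSF receptor, had enough UMIs in HSC-like nuclei, and it was higher in none of GMP-like, NeuP-like and pro-B-like nuclei, where 1.24%, 0.707% and 2.48% of 2262 genes were. It was at 61.5 and 40.6 CPM in GMP-like, 81.1 and 79.6 in NeuP-like, 62.9 and 42.2 in HSC-like nuclei and lowest of these classes in pro-B-like nuclei, 4.56 and 13.6. Csf2ra, a chain of the GM-CSF receptor, was at 59.8 and 29.1 in GMP-like, 81.1 and 43.2 in NeuP-like and 5.90 and 12.3 in HSC-like nuclei, the last from 3 and 7 UMIs, too few for the rule.

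Of the partner transcription factors, Myb and Runx1 had enough UMIs in NeuP-like nuclei and both were lower there, where 8.71% of 677 genes were. Myb, a factor of immature progenitors, was at 119 and 88.8 CPM in NeuP-like and 446 and 274 in HSC-like nuclei, and Runx1, needed for the emergence of stem cells, at 267 and 203 in NeuP-like and 1001 and 427 in HSC-like nuclei. Of Spi1, Irf8, Myb and Runx1, 0 of 4 were lower in GMP-like nuclei, where 2.96% of genes were, and of the last 3 none was lower in pro-B-like nuclei, where 1.88% were. Gata2, Myb and Runx1 had enough UMIs in HSC-like nuclei. In GMP-like, NeuP-like and pro-B-like nuclei 0 of 3 were higher, where 1.24%, 0.707% and 2.48% of 2262 genes were. With so few genes and such low shares a count of 0 was likely in any case. Nothing is read from the counts of 0 in these lists. Klf4 had too few UMIs and is not described. Gfi1, Gata2 and Irf8 had too few UMIs for a call in the direction of the values that follow. Gfi1, a repressor needed for neutrophil development, was at 30.8 and 26.01 in GMP-like and 7.86 and 10.5 in HSC-like nuclei. Gata2, a stem and mast cell factor, was at 1.71 and 6.89 in GMP-like and 84.5 and 36.9 in HSC-like nuclei. Irf8, a monocyte and B-lineage factor, was at 33.4 and 24.6 in HSC-like nuclei, from 17 and 14 UMIs, and reached 82.7 and 76.4 among pro-B-like nuclei. Of the dimer partners and regulators only Atf4 had enough UMIs, and it was higher in none of these 3 classes, at 155 and 120.1 in GMP-like and 155 and 123 in HSC-like nuclei.

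The CEBP palindrome TTGCGCAA, a case of TTGCNNAA, was in 430 of 174282 peaks (0.247%) and in 0 of the 95 CEBP peaks. TTGCNNAA was in 31.4% of all peaks and in 27 of the CEBP peaks (28.4%), and TTGCATCA in 2.66% and in 4 (4.21%). PU.1 letters were in 13.7% of all and 13.7% of CEBP peaks, RUNX letters in 23.4% and 17.9%, GATA letters in 10.7% and 9.47%, and EBF letters in 2.58% and 3.16%. The shares at the CEBP loci lay close to those of all peaks, with RUNX the farthest below.

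Over all peaks, those at gene starts included, the share of ATAC counts in peaks with the palindrome was highest in NeuP-like nuclei. There the share was 0.548% (0.534 to 0.561) and 0.517% (0.507 to 0.527). Away from gene starts 0.219% of peaks held the palindrome, and the part of gene starts in the class shares is not given here. For the palindrome over all peaks, the other classes were as follows. The share was 0.497% and 0.499% in cMoP-like, 0.496% and 0.490% in GMP-like, 0.478% and 0.480% in BaP-like, 0.427% and 0.429% in HSC-like and 0.408% and 0.413% in pro-B-like nuclei. With TTGCNNAA, GMP-like nuclei were first at 29.3% and 29.3%, against 28.2% and 28.4% in NeuP-like and 25.03% and 25.2% in pro-B-like nuclei, and the 4 highest classes were the same as for the palindrome. GATA peaks took the highest share in EryP-like nuclei, 9.51% and 9.39%, and EBF peaks in pro-B-like nuclei, 4.07% and 4.01%.

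**Figure D5:**
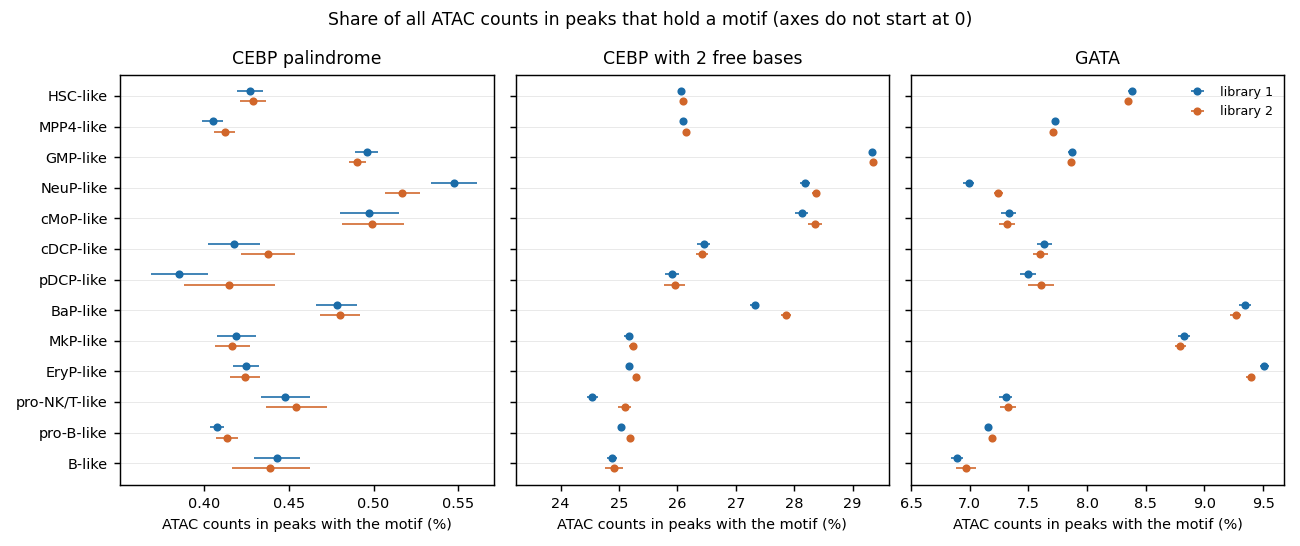
Share of all ATAC counts in peaks that hold a motif, by class of nuclei in library 1 and library 2, with 95% binomial intervals of counting error and axes that do not start at 0. NeuP-like nuclei are highest for the CEBP palindrome at 0.548% and 0.517%.

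Over all kept nuclei every CEBP locus was higher in library 2, with library 2 over library 1 ratios of 1.13 (1.10 to 1.16) at Cebpa, 1.11 (1.07 to 1.16) at Cebpd, 1.11 (1.08 to 1.15) at Cebpg, 1.05 (1.03 to 1.08) at Cebpb and 1.03 (1.01 to 1.06) at Cebpe. The share of all gene windows that were higher in library 2 was not computed. These ratios and the counts of classes below are therefore not read as particular to the CEBP loci. Cebpg RNA was lower in library 2, with a ratio of 0.651 (0.5002 to 0.845), and Cebpb RNA higher, at 1.27 (1.03 to 1.55). The RNA totals include genes at the ribosomal RNA locus, and these library ratios were not repeated without them. The libraries also differed in makeup, with 331 of 5905 nuclei GMP-like in library 1 and 765 of 7714 in library 2, and 1048 and 516 pro-B-like, the class with a low Cebpa locus and 40 and 7 Cebpg UMIs. Within classes the Cebpa locus was higher in library 2 in 9 of 13 and lower in 4, and the other loci were higher in 8 to 10 of 13. Nuclei of library 1 and library 2 also held a median of 636 and 410 genes, at a median of 1641 and 1516.5 UMIs. The part of makeup and of this difference in genes per nucleus in these ratios was not tested.

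The genes with the most similar RNA pattern were ranked by Pearson's r over 26 points, the 13 classes in both libraries, among 6904 genes. Many points held few CEBP UMIs and all share their library's depth. Cebpb was most like Cybb (r = 0.791), a subunit of the phagocyte oxidase, Glipr2 (0.772), Xdh (0.686), Lyz2 (0.677), lysozyme, and S100a6 (0.669). Cebpa was most like Ap1s2 (0.770), Cebpg like Mta2 (0.784) and Cebpd like Vdac2 (0.599), and Cebpe had too few UMIs to be ranked. Of the 5 genes ranked for each, 0 to 3 stayed among the 5 under another pseudocount or UMI minimum.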

How the data were processed

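The authors aligned the reads with Cell Ranger ARC 2.0.0 to GRCm38 (mm10) and deposited 1 matrix of raw counts, UMIs per gene and ATAC counts per peak, for both libraries, and used Seurat 4.0.3 and Signac 1.3.0 downstream. From these deposited counts, 13619 of 18961 barcodes were kept. RNA (30 principal components) and ATAC (latent semantic indexing, from component 2) were joined by weighted nearest neighbours in Seurat 5.3.0 (R 4.3.3) at resolution 0.8, and clusters were named from marker lists. Scrublet, run in scanpy 1.11.5, called 3 doublets, which is too few to have worked, so no nucleus was removed and leaving out the top 8% of scores was an alternative. Within each class and library, counts were added up and scaled to CPM. RNA totals included genes at the ribosomal RNA locus, and leaving those out of the totals was an alternative. ATAC counts were mostly even (82.5% of nonzero entries), since both ends of a fragment are counted, so ATAC intervals were computed on pairs of counts (Poisson for levels, exact conditional binomial for ratios, SciPy 1.17.1). Intervals, those of a count of 0 included, cover counting error only.

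The peaks named were drawn, per locus, from the start peak, the 3 others with the most counts and the most variable. Peaks past the 2-fold rule were added (20 or more counts over both classes in each library, or, added after seeing the data, in the lower class). So were any said to be chosen after their values were seen. Not every peak of this set is described, such as those 32000 and 8756 bp upstream of Cebpb and 19347 bp upstream of Cebpa. The genes named were the CEBP genes, 5 fixed lists and the 5 genes most correlated with each member on log2(CPM + 10), among genes with at least 200 UMIs, for members with 50 UMIs in each library. Members and lists were chosen with earlier results of these data known. Alternatives were other filters, windows, scalings, clusterings, thresholds and motifs. No group comparison was made because the labels do not tie a library to a group.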

Additional observations from a re-analysis of the deposited data

How the results depend on the processing

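The GMP-like over pro-B-like ratio of locus ATAC counts was above 1 in all 100 values over the 5 loci, both libraries and 10 alternatives, from 1.04 to 3.94, but its interval held 1 in 5 of them, 3 for Cebpb in library 1 and 1 for Cebpg in each library, where the main intervals excluded it. The ratio stayed within its counting interval in 66 and moved out of it in 34, and the cause was not tested. With at least 500 genes per nucleus the ratio became, for Cebpa 2.52 and 1.93, Cebpb 1.34 in library 2 and Cebpd 1.73 in library 2. Without limits on ATAC counts the ratio became, for Cebpa 2.53 in library 1. With a 10 kb window the ratio became, for Cebpa 2.24 and 2.27, Cebpb 1.29 and 1.31, Cebpd 3.94 and 3.48, Cebpe 3.56 and 2.87 and Cebpg 1.14 in library 1. With a 100 kb window the ratio became, for Cebpa 2.06 and 1.96, Cebpe 1.37 in library 1 and Cebpg 2.23 and 2.07. Counting nuclei with any count at a peak the ratio became, for Cebpa 2.85 in library 1, Cebpb 1.10 in library 2, Cebpd 2.09 in library 1 and Cebpe 1.74 in library 1. Scaled to counts in peaks at gene starts the ratio became, for Cebpa 3.59 and 2.96, Cebpb 1.26 and 1.38, Cebpe 1.77 and 1.74 and Cebpg 1.57 and 1.61. With clusters from RNA alone the ratio became, for Cebpb 1.04 in library 1 and Cebpe 1.42 in library 1. At a clustering resolution of 0.4 the ratio became, for Cebpb 1.09 in library 2. The RNA ratio moved out of its interval in 1 of 60 values, for Cebpe in library 1 with at least 500 genes, to 7.02, and intervals that excluded 1 came to hold it in 5 of 7 alternatives for Cebpe in library 2 and 3 of 7 for Cebpg in library 1. At 4-fold apart from HSC-like nuclei, with the same CEBP peaks tested, 5 of 75 were higher in GMP-like nuclei (6.67%, against 5.36% of all peaks) and 0 of 75 lower (0% against 1.37%), 2 of 54 were higher in NeuP-like nuclei (3.70%, against 4.95% of all peaks) and 3 of 54 lower (5.56% against 10.7%), 2 of 62 were higher in pro-B-like nuclei (3.23%, against 5.41% of all peaks) and 8 of 62 lower (12.9% against 5.54%), and 0 of 56 were higher in EryP-like nuclei (0%, against 2.43% of all peaks) and 0 of 56 lower (0% against 2.05%). With at least 100 counts, where fewer peaks were tested, 6 of 32 were higher in GMP-like nuclei (18.8%, against 7.71% of all peaks) and 1 of 32 lower (3.12% against 4.12%), 3 of 15 were higher in NeuP-like nuclei (20%, against 5.99% of all peaks) and 0 of 15 lower (0% against 11.3%), 3 of 21 were higher in pro-B-like nuclei (14.3%, against 11.4% of all peaks) and 2 of 21 lower (9.52% against 6.59%), and 0 of 16 were higher in EryP-like nuclei (0%, against 2.38% of all peaks) and 0 of 16 lower (0% against 5.32%). With 20 counts in the lower class, chosen after seeing the data, 3 of 40 were higher in GMP-like nuclei (7.50%, against 1.99% of all peaks) and 1 of 66 lower (1.52% against 2.83%), 4 of 40 were higher in NeuP-like nuclei (10%, against 3.36% of all peaks) and 0 of 29 lower (0% against 1.34%), 1 of 40 were higher in pro-B-like nuclei (2.50%, against 2.83% of all peaks) and 6 of 40 lower (15% against 5.28%), and 0 of 40 were higher in EryP-like nuclei (0%, against 1.19% of all peaks) and 1 of 30 lower (3.33% against 2.55%). ATAC class levels moved out of their intervals in 367 of 390 values with other windows or gene-start scaling, which change every sum or total by construction, and in 54 of 820 values under the other alternatives, and RNA class levels in 52 of 820. With genes at the ribosomal RNA locus left out of the totals, 19 of 130 RNA class levels moved, and the highest was 210 CPM against 109.8 before. Under that alternative 0 of 9 GMP-like over pro-B-like RNA ratios moved. RNA of single classes rested on few UMIs, which limits every RNA order given. Of the ratios of sums between classes, only GMP-like over pro-B-like was repeated, and ratios of NeuP-like or cMoP-like nuclei were not. No cluster was named cMoP-like with at least 500 genes per nucleus or with clusters from RNA alone. With at least 500 genes NeuP-like nuclei fell from 482 to 57. Under that filter a cluster of 469 nuclei with 8 pro-B markers raised stayed unnamed. The pro-B-like class in its ratios was thus a different set of nuclei. No paired analysis was possible because no label ties a library to a group and each group had 1 sample of each assay.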
